A study of Homo sapiens with 6 samples.

Results

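The genes described here were 40 nuclear receptor genes other than those of the retinoic acid receptors (RAR) and retinoid X receptors (RXR), chosen by symbol and all found among the 60675 Ensembl identifiers of the count table. The libraries were RNA-seq libraries of PANC1, an established human pancreatic cancer cell line. Wild-type cells (WT, 3 libraries) had no treatment per the labels. The other group (RARG-KO, 3 libraries) was stably depleted of RARG, the gene of retinoic acid receptor gamma, by a plasmid with Cas9 and a pair of guide RNAs, puromycin selection and expansion of individual clones, so that these libraries may stem from few clones or from 1. Both groups were the same line grown in the same medium, and it is not stated whether the replicates were grown apart. Coordinates below are GRCh38 positions from GENCODE release 29.

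Nuclear receptors are transcription factors that bind DNA through a zinc-finger domain, and most change the recruitment of coactivators and corepressors when a small lipophilic ligand occupies their ligand-binding domain. Steroid receptors bind DNA mainly as homodimers, whereas the receptors for thyroid hormone, vitamin D, fatty acids, oxysterols and bile acids bind together with RXR, the partner that RAR proteins use as well. Others are called orphan receptors because no ligand is established, and NR0B1 and NR0B2 lack the DNA-binding domain. In the pancreas NR5A2 is known for its part in acinar cells, and NR4A genes are known as immediate early genes that are switched on within a short time of a stimulus.

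The guides are shown because they were designed against a member of the same gene family. Written 5′ to 3′ as the labels give them, they were the following sequences.
sgRNA1: ccaccccaatgcctctagcg
sgRNA2: gaagtgggcatgtccaagga
Over the transcripts of all 40 receptor genes, read on both strands, the closest place followed by any base and GG had 6 mismatches to sgRNA1, in 4 genes (ESR1, ESRRG, NR4A1 and PPARA). For sgRNA2 it had 5 mismatches, also in 4 genes (ESRRA, ESRRB, ESRRG and NR4A1). Introns were not searched.

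Stretches upstream of 3 receptor genes whose level differed between the groups show AGGTCA, the hexamer that many nuclear receptors bind, in capitals. They are from RefSeq (GRCh38.p14), on the plus strand.
NR5A2: atggtttacagcAGGTCActaatgttggaa
NR1H3: tggtttgcctatAGGTCAgaagcatcccct
PPARG: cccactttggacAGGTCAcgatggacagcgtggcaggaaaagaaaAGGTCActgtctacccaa
They lie at chr1:200027614-200027643, chr11:47248148-47248177 and chr3:12287139-12287201. The NR5A2 hexamer begins 84 bases before the RefSeq start, within an exon of NR5A2 in GENCODE release 29, where the gene starts earlier. In NR1H3 it begins 140 bases before the start, and PPARG has a pair, 217 and 184 bases before. The RefSeq table held windows of 250 bases before to 50 bases after the start for 35 of the 40 genes, 83 windows in all. AGGTCA on either strand was in 13 of them (15.7%), from 8 genes, and in 13.8% of all 35116 windows, so that the receptor genes stood close to the rest. Of these 8 genes, ESR2, ESRRG, NR0B1, NR1H4 and NR2E1 had too few reads for the test described below. The 3 genes shown were thus the only receptor genes that differed and had the hexamer in a window. For each, the window with the lowest start position is shown. A direct repeat of AGGTCA with 0 to 5 bases between the copies was in 0 of the 83 windows, and in 1 to 8 of all windows for each spacing.

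Total counts per library ran from 29386408 to 30605114 for WT and from 30115051 to 31608089 for RARG-KO. Levels are given as CPM, counts scaled to the library total adjusted by TMM factors. RARG itself was lower in every RARG-KO library (24.1 to 28.5 CPM) than in every WT library (39.1 to 41.6 CPM). This is a partial check of the labels, since the count covers the whole gene. Of 6 ductal and epithelial markers listed to check the cell type, 6 were detected, and their summed level was 2900 to 2960 CPM in WT and 1280 to 1360 in RARG-KO. KRT19 fell (log2 -2.11 ± 0.04, SE, by the edgeR quasi-likelihood test). KRT8 (log2 -1.10 ± 0.03), KRT18 (-1.03 ± 0.03), KRT7 (-1.31 ± 0.13) and EPCAM (-0.64 ± 0.12) fell too. CDH1, the gene of E-cadherin, was the only 1 that rose (log2 2.05 ± 0.12). Of 3 mesenchymal markers, CDH2, the gene of N-cadherin, fell (log2 -2.59 ± 0.07), while VIM (log2 0.00 ± 0.02) and FN1 (log2 -0.15 ± 0.17) did not pass, and their sum was 1740 to 1770 CPM in WT and 1700 to 1720 in RARG-KO. Leukocyte (3 genes) and endothelial (3 genes) markers summed to at most 0.167 and 0.632 CPM in any library. The 4 fibroblast markers summed to 99.1 to 104 CPM in WT and 205 to 219 in RARG-KO, nearly all of it COL1A1, with DCN at 0 reads. The share of mitochondrial counts was 3.87 to 4% in WT and 5.19 to 5.37% in RARG-KO. The part of these marker shifts in the receptor results was not tested. In bulk RNA, fewer cells of a kind and less RNA per cell cannot be told apart.

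Of the 40 receptor genes, 25 had enough reads for the test and 15 did not. In the tested ones, 8 were higher and 9 lower in RARG-KO and 8 did not pass, that is 17 of 25 (68%; edgeR quasi-likelihood test, Benjamini-Hochberg adjusted over 16996 genes). This is to be read against a background of 58.0% of all tested genes, 28.7% higher and 29.3% lower, a share not far from that of the receptor genes. A change of at least 2-fold was found in 4 of them (NR5A2, RORA, THRA and NR4A1), where 12.2% of all tested genes had one. In 18 of the 25 genes all libraries of a group lay on one side of those of the other, as in 62.6% of all tested genes. The median log2 fold change was -0.08, and 0.01 over all tested genes. The test asks for enough reads in only 3 libraries, so a gene such as NR5A2 entered through WT alone. The summed level of all 40 genes was 799.7 to 811.9 CPM in WT and 790.6 to 797.1 in RARG-KO.

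**Figure D1:**
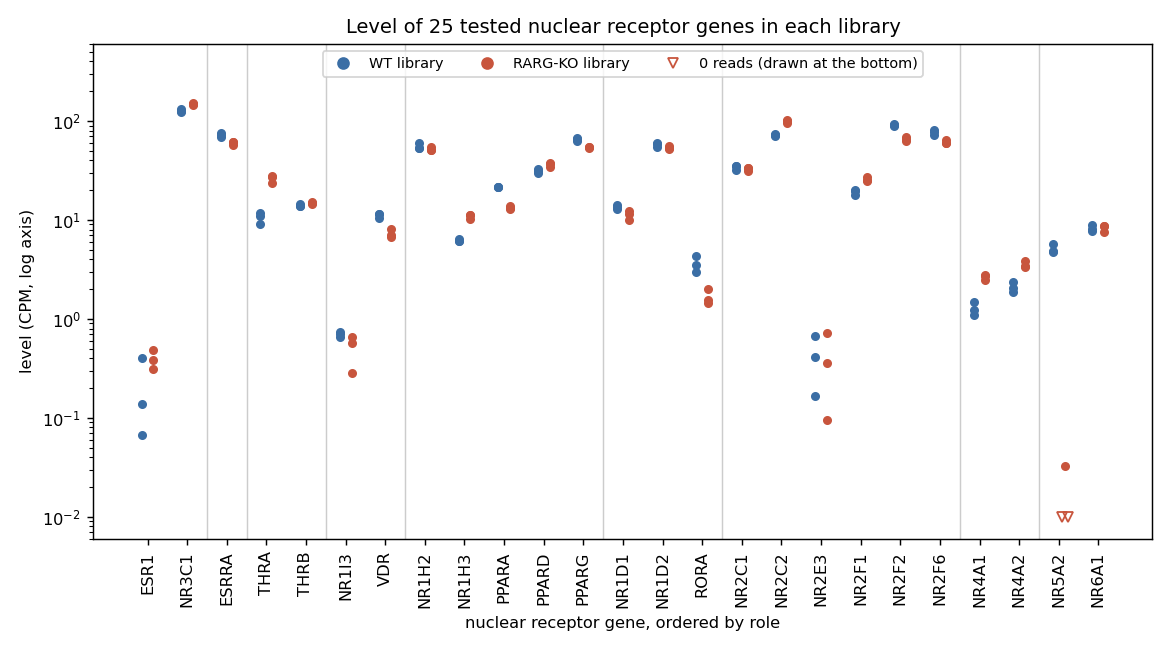
Level of each of the 25 tested receptor genes (CPM, log axis) in each library, with genes ordered by role and separated by grey lines. NR5A2 dropped from 4.76 to 5.67 CPM in WT to 1 read in all RARG-KO libraries together, and THRA, NR4A1, NR4A2 and NR1H3 lay higher in every RARG-KO library.

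**Figure D2:**
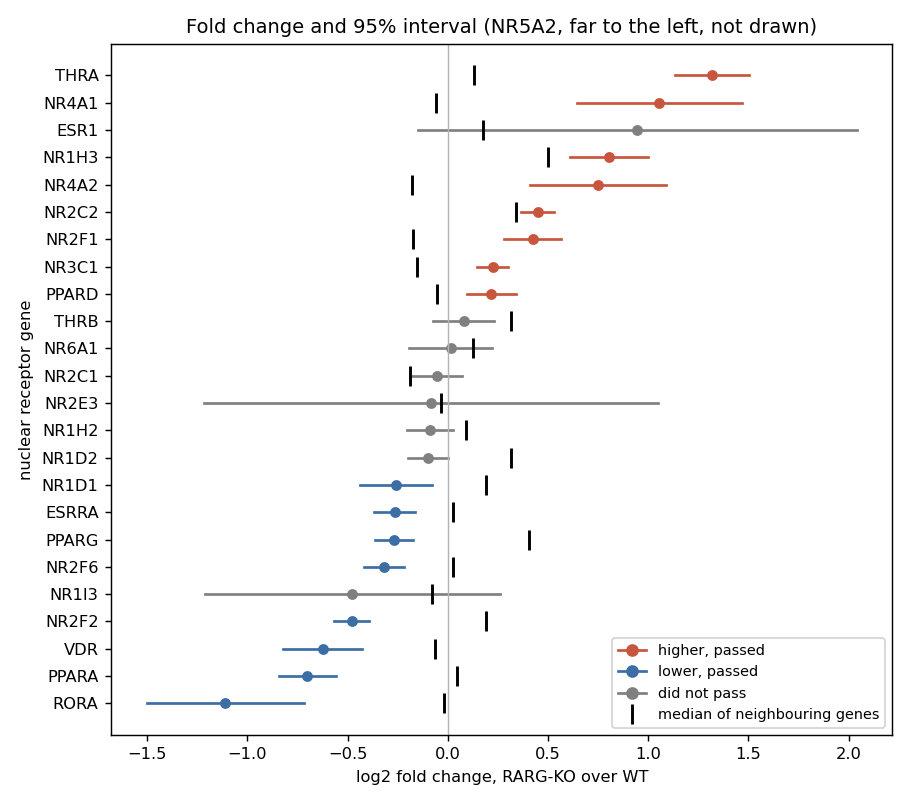
Log2 fold change (RARG-KO over WT) of 24 tested receptor genes with its 95% interval, coloured by the edgeR call, and the median log2 fold change of the neighbouring genes as a black tick. PPARG, NR1D2 and THRB lie to the left of their ticks and NR2C2 and NR1H3 to the right of theirs.

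Levels were compared between genes per length, as CPM per kilobase of exon. On this scale the highest WT means were those of NR2F6 (28.6 ± 1.64, SD, n = 3) and ESRRA (23.9 ± 1.22), which both encode orphan receptors. A group of close levels followed, with NR1H2 at 14.8 ± 1.08, PPARG at 14.4 ± 0.548, NR2F2 at 14.1 ± 0.256 and NR3C1 at 13.9 ± 0.446, which did not differ beyond their spread. In RARG-KO, NR2F6 (22.96 ± 1.02) and ESRRA (19.9 ± 0.827) were again the highest. NR3C1, at 16.3 ± 0.515 CPM per kilobase, was then at rank 3 in place of rank 6, and NR2F2, at 10.1 ± 0.421, was at rank 6 in place of rank 5. At the low end of the tested genes were RORA, NR1I3, NR4A1, NR2E3 and ESR1, each below 0.4 CPM per kilobase in both groups.

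**Figure D3:**
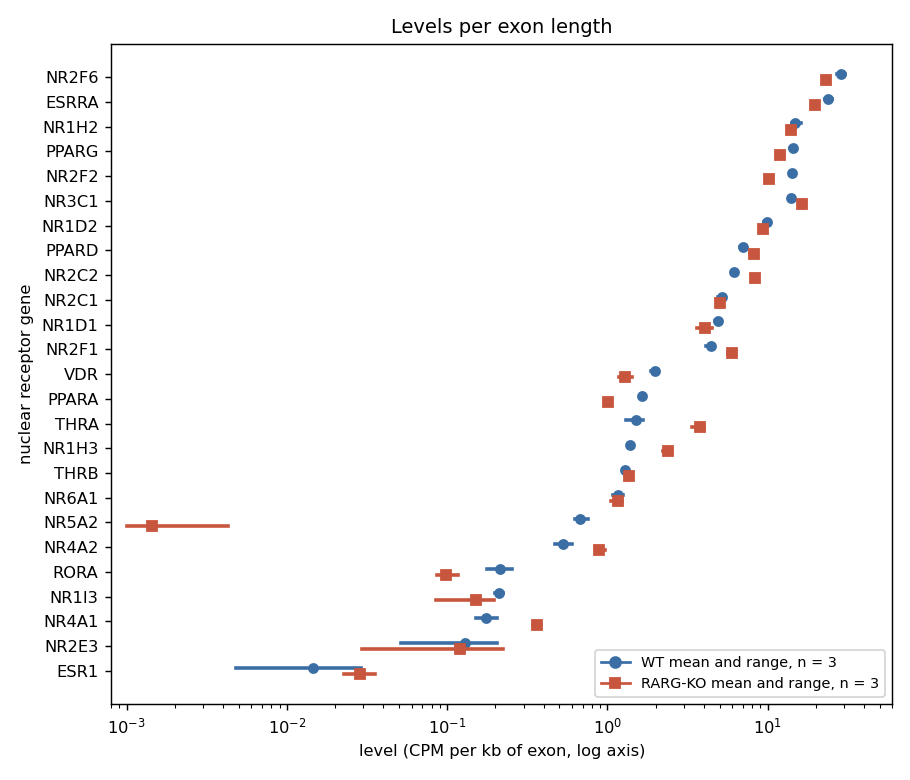
Level per exon length (CPM per kilobase, log axis) of the tested receptor genes, as the mean and range of 3 WT (circles) and 3 RARG-KO (squares) libraries, ordered by the WT mean. Levels ran from 28.6 for NR2F6 to 0.0145 for ESR1 in WT, and the RARG-KO range of NR5A2 reaches down to 0 and is cut at the left.

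Among the steroid receptors, NR3C1, the gene of the glucocorticoid receptor (ENSG00000113580, chromosome 5, 143277931 to 143435512), was the most abundant on the CPM scale. Levels were 132, 124 and 127 CPM in the WT libraries (replicates 1, 2 and 3) and 149.6, 154 and 144 CPM in the RARG-KO libraries. Every RARG-KO library was above every WT library, and the level rose from 128 ± 4.09 to 149 ± 4.73 CPM (edgeR log2 fold change 0.22 ± 0.04, SE, with adjusted p = 2.70e-05; mean ± SD, n = 3). ESR1, the gene of oestrogen receptor alpha, was close to the limit of detection, with 4, 2 and 12 reads in WT replicates 1 to 3 and 10, 15 and 12 in those of RARG-KO. Its libraries overlapped and it did not pass (log2 0.95 ± 0.52, SE, 95% interval -0.15 to 2.04; edgeR adjusted p = 0.131), but passed without WT replicate 3 (log2 1.91, adjusted p = 0.0192). ESR2, the gene of oestrogen receptor beta, had 13 WT and 18 RARG-KO reads. NR3C2, the gene of the mineralocorticoid receptor, had 18 and 28. PGR, the gene of the progesterone receptor, had 0 reads in every library, which allows up to 0.0937 to 0.104 CPM in a library (3 counts).

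The oestrogen-related receptors are orphan receptors known for control of mitochondrial and oxidative genes. ESRRA (ENSG00000173153, chromosome 11, 64305572 to 64316743) had 68.7, 76.1 and 72.1 CPM in the WT libraries (replicates 1, 2 and 3) and 61.2, 57.3 and 62.0 CPM in the RARG-KO libraries. The groups did not overlap, and the gene fell (log2 -0.27 ± 0.05, SE; edgeR adjusted p = 7.83e-05). It shares 284 exon bases with TRMT112, an opposite-strand gene that took 25072 reads where ESRRA took 12097, and that moved the other way (log2 0.16 ± 0.04, SE), so that the fall of ESRRA lay against its partner. ESRRB (16 WT and 10 RARG-KO reads) and ESRRG (4 and 1) were too rare to test.

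Of the thyroid hormone receptor genes, THRA had the highest fold change among the tested receptor genes, and THRB did not pass. THRA (ENSG00000126351, chromosome 17, 40058290 to 40093867) had 9.10, 10.9 and 11.6 CPM in the WT libraries (replicates 1, 2 and 3) and 28.0, 23.6 and 27.4 CPM in the RARG-KO libraries. The lowest RARG-KO library was about 2-fold above the highest WT library, and the level rose 2.49-fold, from 10.6 ± 1.31 to 26.3 ± 2.40 CPM (edgeR log2 fold change 1.32 ± 0.09, SE, with adjusted p = 5.18e-11; mean ± SD, n = 3). Its 3′ end overlaps NR1D1 on the other strand by 263 exon bases. NR1D1, with 2261 reads against 3419 of THRA, went down, opposite to the rise of THRA. THRB (ENSG00000151090, chromosome 3, 24117153 to 24495756) had 14.6, 13.9 and 13.9 CPM in the WT libraries (replicates 1, 2 and 3) and 14.9, 15.3 and 14.5 CPM in the RARG-KO libraries. These libraries overlapped (log2 0.08 ± 0.07, 95% interval -0.07 to 0.23; edgeR adjusted p = 0.369).

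VDR, the gene of the vitamin D receptor (ENSG00000111424, chromosome 12, 47841537 to 47943048), was lower in RARG-KO. Levels were 11.6, 10.5 and 11.5 CPM in the WT libraries (replicates 1, 2 and 3) and 8.03, 7.07 and 6.68 CPM in the RARG-KO libraries, and the groups did not overlap (edgeR log2 fold change -0.62 ± 0.09, SE, with adjusted p = 8.57e-06). The xenobiotic receptor genes, known from liver, were rare. NR1I2, the gene of PXR, had 5 WT reads and 1 RARG-KO read. NR1I3, the gene of CAR, had 62 and 47 reads, and though its CPM values in RARG-KO all lay below those in WT it did not pass (log2 -0.48 ± 0.35, 95% interval -1.21 to 0.26; edgeR adjusted p = 0.261). It overlaps TOMM40L of the opposite strand, with 3260 reads, so that the few reads of NR1I3 are uncertain.

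The peroxisome proliferator-activated receptors, which sense fatty acids, went in both directions. PPARA, known for control of fatty acid oxidation (ENSG00000186951, chromosome 22, 46150521 to 46243756), had 21.5, 21.7 and 21.6 CPM in the WT libraries (replicates 1, 2 and 3) and 12.8, 13.8 and 13.2 CPM in the RARG-KO libraries. The WT libraries lay closer together, relative to their level, than in any other tested receptor gene, and the gene fell 1.63-fold (edgeR log2 fold change -0.70 ± 0.07, SE, with adjusted p = 1.76e-08). PPARG, a regulator of fat cell differentiation (ENSG00000132170, chromosome 3, 12287368 to 12434356), had 62.5, 67.2 and 66.2 CPM in the WT libraries (replicates 1, 2 and 3) and 54.8, 53.6 and 54.1 CPM in the RARG-KO libraries. All RARG-KO libraries lay below all WT libraries, though by less than in PPARA (edgeR log2 fold change -0.27 ± 0.05, SE, with adjusted p = 3.85e-05). PPARD, a widely expressed member, had 32.6, 31.2 and 30.01 CPM in the WT libraries (replicates 1, 2 and 3) and 37.6, 34.6 and 36.8 CPM in the RARG-KO libraries, and rose (edgeR log2 fold change 0.22 ± 0.06, SE, with adjusted p = 0.00326).

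The liver X receptors respond to oxysterols and control cholesterol export and lipid synthesis. NR1H3, the gene of LXR alpha (ENSG00000025434, chromosome 11, 47248300 to 47269032), had 6.19, 6.41 and 6.09 CPM in the WT libraries (replicates 1, 2 and 3) and 11.3, 10.1 and 11.2 CPM in the RARG-KO libraries. All RARG-KO libraries were above all WT libraries, a 1.75-fold rise (edgeR log2 fold change 0.80 ± 0.09, SE, with adjusted p = 2.30e-07). NR1H3 shares 189 exon bases with ACP2, an opposite-strand gene that took 7704 reads where NR1H3 took 1579, and that rose too (log2 0.60 ± 0.05, SE). The part of ACP2 in the rise of NR1H3 was not tested. NR1H2, the gene of LXR beta, was far more abundant and had 53.3, 60.1 and 52.9 CPM in the WT libraries (replicates 1, 2 and 3) and 51.4, 50.6 and 54.5 CPM in the RARG-KO libraries. These overlapped (log2 -0.09 ± 0.06, 95% interval -0.20 to 0.03; edgeR adjusted p = 0.180). NR1H4, the gene of the bile acid receptor FXR, had 5 WT and 0 RARG-KO reads.

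The clock receptors were lower or did not pass. NR1D1 and NR1D2 encode REV-ERB alpha and beta, repressors in the circadian clock, and RORA encodes an activator that binds the same elements. RORA (ENSG00000069667, chromosome 15, 60488284 to 61229319) had 3.01, 3.54 and 4.33 CPM in the WT libraries (replicates 1, 2 and 3) and 2.00, 1.56 and 1.46 CPM in the RARG-KO libraries, and fell to less than the lowest WT library in every RARG-KO library (edgeR log2 fold change -1.11 ± 0.19, SE, with adjusted p = 3.27e-05). Its antisense partner RORA-AS1, with 156 reads where RORA had 481, did not pass (log2 0.36 ± 0.28, SE). NR1D1 (ENSG00000126368, chromosome 17, 40092787 to 40100725) had 13.5, 12.9 and 14.1 CPM in the WT libraries (replicates 1, 2 and 3) and 11.4, 12.4 and 10.1 CPM in the RARG-KO libraries. It was lower (edgeR log2 fold change -0.26 ± 0.09, SE, with adjusted p = 0.0148), with groups that did not overlap, but the call was lost with DESeq2 (adjusted p = 0.0608) and in edgeR fits that left out WT replicate 3 (0.0681) or RARG-KO replicate 3 (0.0991). NR1D2 (ENSG00000174738, chromosome 3, 23945260 to 23980618) had 59.3, 55.2 and 59.0 CPM in the WT libraries (replicates 1, 2 and 3) and 52.6, 55.9 and 53.5 CPM in the RARG-KO libraries. This difference did not pass (log2 -0.10 ± 0.05, 95% interval -0.20 to 0.00; edgeR adjusted p = 0.0908), and passed without WT replicate 2 (log2 -0.13, edgeR adjusted p = 0.0393) or RARG-KO replicate 2 (log2 -0.12, 0.0463). RORB, a related gene known from the nervous system, had 11 reads, all in WT replicate 3.

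In subfamily NR2, the COUP transcription factor genes moved apart. NR2F2, the gene of COUP-TFII (ENSG00000185551, chromosome 15, 96325938 to 96340263), had 91.0, 93.1 and 89.8 CPM in the WT libraries (replicates 1, 2 and 3) and 63.0, 68.4 and 65.1 CPM in the RARG-KO libraries, and fell (edgeR log2 fold change -0.48 ± 0.04, SE, with adjusted p = 3.60e-09). NR2F1, the gene of COUP-TFI (ENSG00000175745, chromosome 5, 93583224 to 93594615), had 20.03, 17.7 and 19.6 CPM in the WT libraries (replicates 1, 2 and 3) and 24.5, 26.9 and 25.5 CPM in the RARG-KO libraries, and rose (edgeR log2 fold change 0.42 ± 0.07, SE, with adjusted p = 1.88e-05). NR2F1-AS1, which shares 158 exon bases with NR2F1 on the other strand, rose by the same log2 value (0.42 ± 0.09) and took 2781 reads where NR2F1 took 4112. Its part in the rise of NR2F1 was not tested. NR2F6 (ENSG00000160113, chromosome 19, 17231883 to 17245940), a further COUP relative, had 72.1, 80.8 and 76.9 CPM in the WT libraries (replicates 1, 2 and 3) and 60.2, 59.5 and 64.6 CPM in the RARG-KO libraries, and fell (edgeR log2 fold change -0.32 ± 0.05, SE, with adjusted p = 1.04e-05). All 3 had groups without overlap.

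The testicular receptors, orphan repressors named for the tissue of their discovery, had 1 gene that rose and 1 that did not pass. NR2C2, the gene of TR4 (ENSG00000177463, chromosome 3, 14947584 to 15053600), had 73.8, 71.3 and 72.9 CPM in the WT libraries (replicates 1, 2 and 3) and 98.9, 102 and 96.5 CPM in the RARG-KO libraries, with all RARG-KO libraries higher (edgeR log2 fold change 0.45 ± 0.04, SE, with adjusted p = 3.79e-09). It overlaps FGD5-AS1 (32521 reads) and MRPS25 (9132 reads) of the opposite strand, where NR2C2 had 15787 reads. Both rose by a like amount (log2 0.45 ± 0.03 and 0.40 ± 0.05, SE), and their part in the rise of NR2C2 was not tested. NR2C1, the gene of TR2, had 35.3, 34.9 and 31.9 CPM in the WT libraries (replicates 1, 2 and 3) and 31.5, 33.4 and 33.4 CPM in the RARG-KO libraries, which overlapped (log2 -0.06 ± 0.06, 95% interval -0.18 to 0.07; edgeR adjusted p = 0.445). NR2E3, a photoreceptor gene, had 37 reads in each group and varied from 3 to 23 reads between libraries (log2 -0.08 ± 0.54, adjusted p = 0.906). The hepatocyte nuclear factor genes HNF4A (23 WT and 14 RARG-KO reads) and HNF4G (1 and 5, all 5 in replicate 3) and NR2E1 (6 and 5) were too rare to test.

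Of the NR4A orphan receptors, NR4A1 and NR4A2 were 2.08-fold and 1.68-fold higher in RARG-KO at low levels. NR4A1, the gene of NUR77 (ENSG00000123358, chromosome 12, 52022832 to 52059507), had 1.11, 1.23 and 1.497 CPM in the WT libraries (replicates 1, 2 and 3) and 2.50, 2.70 and 2.80 CPM in the RARG-KO libraries (edgeR log2 fold change 1.06 ± 0.20, SE, with adjusted p = 1.09e-04). NR4A2, the gene of NURR1 (ENSG00000153234, chromosome 2, 156324432 to 156342348), had 2.08, 2.37 and 1.86 CPM in the WT libraries (replicates 1, 2 and 3) and 3.44, 3.35 and 3.82 CPM in the RARG-KO libraries (edgeR log2 fold change 0.75 ± 0.16, SE, with adjusted p = 5.10e-04). The groups were apart in both. The third member, NR4A3, had 29 WT and 23 RARG-KO reads and was not tested.

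The largest fall was that of NR5A2, the gene of LRH-1 (ENSG00000116833, chromosome 1, 200027602 to 200177424). It had 164, 145 and 143 reads in WT replicates 1, 2 and 3, which is 5.67, 4.84 and 4.76 CPM, and 0, 1 and 0 reads in RARG-KO. Per library total adjusted by TMM factors, the 452 WT reads against 1 RARG-KO read made a 478-fold difference. Counting error allows 85.4 to 18940 for it (95% interval from the summed reads). The edgeR fit, a separate estimate, gave a log2 fold change of -8.43 ± 0.40 (SE, 95% interval -9.28 to -7.59, edgeR adjusted p = 2.07e-13). None of its 40 neighbouring genes fell as far, and their median log2 was -0.09. Acinar markers (4 genes), listed because NR5A2 is known from acinar cells, summed to 0.484 to 0.699 CPM in WT and 0.125 to 0.255 in RARG-KO. Most of this was CEL in WT, and all of it in RARG-KO, with CPA1 at 0 reads. The part of these markers in the NR5A2 result was not tested. NR5A1, the gene of the related steroidogenic factor SF-1, had 3, 1 and 10 reads in WT and 0 in RARG-KO. It lay below the filter, and without a filter it passed (edgeR adjusted p = 0.00645, DESeq2 0.0239), as RORB did by edgeR (0.0212) but not by DESeq2 (0.437). NR6A1, the gene of germ cell nuclear factor, had a mean of 8.24 ± 0.599 CPM in WT and 8.33 ± 0.709 in RARG-KO (log2 0.02 ± 0.10, 95% interval -0.19 to 0.22; edgeR adjusted p = 0.907). NR0B2, the gene of SHP, a repressor of NR5A2 and other receptors, had 6 WT reads and 1 RARG-KO read, and NR0B1, the gene of DAX-1, had 0 in every library.

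Neighbouring genes were compared with the receptor genes by position. Of the 5 receptor genes on chromosome 3, 4 were tested (PPARG, NR2C2, NR1D2 and THRB). Among the 40 tested protein-coding genes around PPARG, 28 were higher and 3 lower, with a median log2 of 0.41. Around NR2C2, NR1D2 and THRB the medians were 0.34, 0.32 and 0.32, and these 3 sets share genes with each other. NR2C2, at log2 0.45, lay inside the range of its neighbours, 13 of which were above it. The others lay lower than most of their neighbours, with 35 of 40 above PPARG, 33 above NR1D2 and 29 above THRB. With these regional medians taken out of the fit, all 3 were past the threshold. PPARG was at log2 -0.67, NR1D2 at -0.41 (edgeR adjusted p = 3.66e-07) and THRB at -0.24 (0.00896). The medians entered the fit as fixed values, so that p-values of this fit leave out the spread among neighbours. The fall of PPARG was thus over 1.5 times larger against its neighbours, and THRB turned from a small positive value to a negative one.

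**Figure D4:**
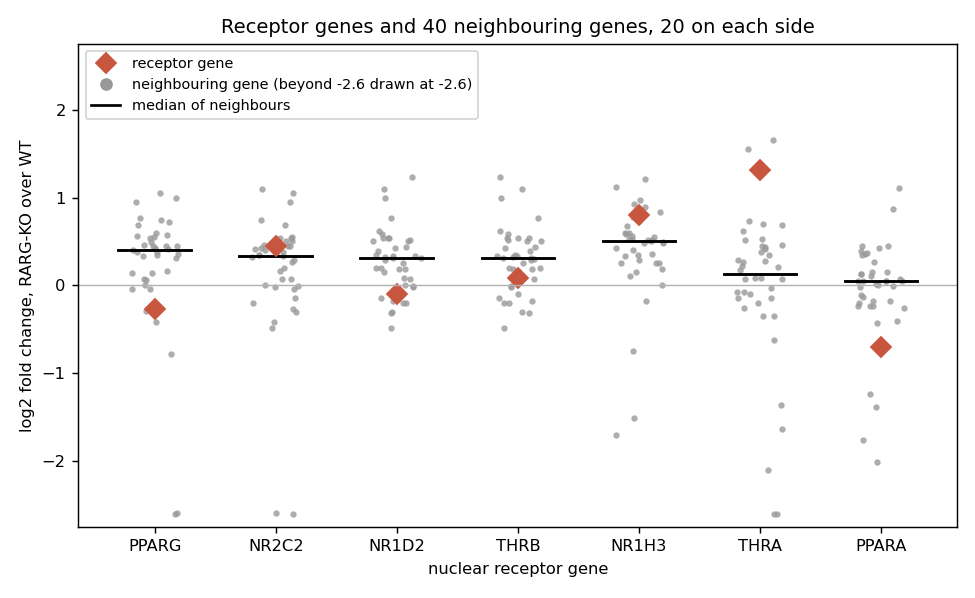
Log2 fold change (RARG-KO over WT) of 7 receptor genes (diamonds), each with its 40 nearest tested protein-coding genes (points) and their median (line). The neighbours of PPARG, NR2C2, NR1D2, THRB and NR1H3 have medians of 0.32 to 0.50. THRA and PPARA stand away from the medians of their neighbours, 0.13 and 0.04. The neighbours of THRA spread to both sides, with 16 higher and 13 lower.

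NR1H3, on chromosome 11, also lay among genes that were higher, 32 of 40, with a median of 0.50. Its own log2 value of 0.80 was above 34 of them. Of the 40 neighbours of THRA 38 were below it, and ERBB2 (log2 1.66) and PPP1R1B (1.55) above. Around THRA 16 were higher and 13 lower, with KRT15 (-3.08) and KRT16 (-3.12) among the falls. For NR4A1 39 of 40 were below it, and ITGB7 (log2 4.34) was above. The neighbours of NR4A1 include RARG (log2 -0.58), the depleted gene, and the part of this nearness in the rise of NR4A1 was not tested. NR2F2 had 38 neighbours, 22 higher and 10 lower, and moved against their median of 0.19. Of these neighbours 6 lay below NR2F2, among them the nearest on each side, RGMA (log2 -1.28) and ARRDC4 (-4.19). NR2F1 and NR3C1 on chromosome 5 rose among genes with medians of -0.17 and -0.15. Of the 40 neighbours of NR1H2, 24 were above it and 16 below. With the regional median removed it was at log2 -0.18 and then passed (edgeR adjusted p = 0.0102), again leaving out the spread among neighbours. In that fit the 17 calls of the first fit kept their direction and passed. NR2C2 (log2 0.11, edgeR adjusted p = 0.0238) and NR1H3 (0.30, 0.00952) were then over 1.5 times smaller. NR1D1 (-0.45, 0.000161) and NR3C1 (0.38, 3.16e-08) were over 1.5 times larger, as PPARG was.

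Known target genes of these receptors, partners and ligand enzymes were counted in 13 lists by the same edgeR test, beside a background of 28.7% higher and 29.3% lower. Named are up to 2 rises and 2 falls of each list with the smallest adjusted p. FKBP5, KLF9, BMAL1, ABCG1, SREBF1, PPARGC1A, PPARGC1B, HSD11B2, CYP27B1, HSD11B1 and CYP24A1 were added after their values were seen. All lists were chosen with earlier results of these data known, so that their counts beside this background are descriptive only. Of 22 genes induced by the glucocorticoid or mineralocorticoid receptor, 17 were tested, 14 fell, 0 rose (also 0 with DESeq2 and at an unadjusted p under 0.05) and 3 did not pass (median log2 -0.47). The falls with the smallest adjusted p were those of ZFP36, the gene of an mRNA decay factor (log2 -1.16 ± 0.03, SE, with neighbours at -0.75), and ANGPTL4, the gene of an inhibitor of lipoprotein lipase, which fell from 131 ± 3.24 to 44.0 ± 2.36 CPM (mean ± SD, n = 3). FKBP5, a widely used readout of the glucocorticoid receptor, fell from 57.6 ± 2.36 to 41.7 ± 1.42 CPM (log2 -0.46 ± 0.05; edgeR adjusted p = 1.14e-07). The NR3C1 level itself was higher. DUSP1 and PER1 of this list are also in the immediate early and clock lists. ANGPTL4 is also in the PPAR list, FKBP5 in the chaperone list and KLF9 in the thyroid hormone list. CPT1A is in both the PPAR and thyroid hormone lists, and PDK4 and ACADM are in both the PPAR and oestrogen-related receptor lists. Such genes are counted in each of their lists, so that the lists are not independent of each other.

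Of 16 oestrogen and progesterone receptor targets, 13 were tested, 7 fell and 4 rose (median -0.29). XBP1 (log2 -0.99 ± 0.04, SE) and AREG (log2 -1.73 ± 0.09) fell, and STC2 (log2 0.90 ± 0.03) and CA12, the gene of a carbonic anhydrase (from 0.416 ± 0.0289 to 11.4 ± 1.46 CPM), rose. The count of rises was 2 with DESeq2 and when WT replicate 1 or RARG-KO replicate 3 was left out. Of 16 chaperone genes of steroid receptors, 8 fell and 4 rose, all by less than 0.6 on the log2 scale (median -0.11). HSPA8 (log2 -0.27 ± 0.02) and HSPA1A (log2 -0.39 ± 0.04, a near-identical copy of HSPA1B) fell, and BAG1 (log2 0.59 ± 0.05, neighbours at 0.28) and DNAJA1 (log2 0.28 ± 0.03, neighbours at 0.26) rose. The count of rises among the chaperones was 7 with upper-quartile factors.

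Among 11 thyroid hormone receptor targets, 9 were tested, 7 fell and 0 rose (also 0 with DESeq2 and at an unadjusted p under 0.05; median -0.36), beside the higher THRA level. TBC1D4, the gene of a regulator of glucose transporter traffic, fell from 30.9 ± 1.82 to 6.91 ± 0.341 CPM (mean ± SD; adjusted p = 1.53e-15 by edgeR), and ATP2A2, the gene of the calcium pump SERCA2, to a log2 fold change of -0.36 ± 0.03 (SE). KLF9, which both thyroid hormone and glucocorticoids induce, fell to a log2 fold change of -0.50 ± 0.09. Of 13 vitamin D receptor targets, 6 were tested, 3 fell and 2 rose (median -0.48, but 0.09 over genes with a mean of at least 1 CPM, and -0.29 without RARG-KO replicate 2). G0S2 (log2 -3.30 ± 0.19) and TRPV6, a calcium channel gene (log2 -1.05 ± 0.15), fell, and THBD, the gene of thrombomodulin (log2 1.76 ± 0.11, neighbours at 0.49), and LRP5 (log2 0.27 ± 0.03) rose. CYP24A1, the defining target, was too rare to test.

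The lipid sensor lists went both ways. Of 15 LXR targets, 11 were tested, 5 fell and 3 rose (median -0.03, with 0.01 under upper-quartile factors and -0.25 with regional medians removed). The cholesterol exporter genes ABCA1 (from 28.1 ± 1.20 to 14.4 ± 1.38 CPM) and ABCG1 (log2 -1.93 ± 0.26) fell, as did SCD, the gene of a fatty acid desaturase (from 1378 ± 26.0 to 471 ± 5.92 CPM, neighbours at -0.49). APOE (log2 1.09 ± 0.09) and NR1H3 itself, which is also a receptor counted above, rose, and so did SREBF1 (log2 0.24 ± 0.04). Of 20 PPAR targets, 12 were tested, 5 fell and 4 rose (median 0.00, and -0.09 over genes with a mean of at least 1 CPM). ANGPTL4 and ACADVL (log2 -0.43 ± 0.03) fell, and SLC25A20, the gene of the carnitine carrier (log2 0.76 ± 0.07), and ACADM (log2 0.46 ± 0.04) rose. SLC25A20 lies among neighbours with a median of 0.50, on chromosome 3.

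Of 21 targets of the oestrogen-related receptors in oxidative metabolism, 20 were tested, 9 fell and 8 rose (median -0.08). VEGFA (log2 -0.59 ± 0.04) and TFAM, a mitochondrial transcription factor gene (log2 -0.91 ± 0.07, with neighbours at -0.73), fell, and UQCRC1 (log2 0.37 ± 0.03, neighbours at 0.50) and ACADM rose. The count of rises was 5 without RARG-KO replicate 1. The 9 falls include ESRRA itself, which is also a receptor counted above. They also include the coactivator genes PPARGC1A (log2 -1.48 ± 0.31) and PPARGC1B (log2 -0.49 ± 0.07). Of 20 clock genes, 19 were tested, 10 fell and 6 rose (median -0.09). BHLHE40 (log2 -1.19 ± 0.04, neighbours at 0.37) and CLOCK (log2 -0.64 ± 0.05) fell, and CRY2 (log2 0.63 ± 0.07, neighbours at 0.38) and TIMELESS (log2 0.31 ± 0.04) rose. BMAL1, which REV-ERB proteins repress and ROR proteins activate, fell from 18.8 ± 2.40 to 15.4 ± 0.842 CPM (log2 -0.29 ± 0.09; edgeR adjusted p = 0.00664).

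Of 16 immediate early genes that are often induced along with NR4A genes, 14 were tested, 10 fell and 1 rose (median -0.72), opposite to NR4A1 and NR4A2. ATF3 (from 67.8 ± 1.12 to 11.2 ± 0.795 CPM) and EGR1 (from 24.1 ± 0.996 to 4.24 ± 0.788 CPM) fell, and the rise was that of ARC (log2 1.27 ± 0.26, neighbours at -0.52). Liver, intestine and pancreas targets of FXR, HNF4A and NR5A2 were mostly too rare to test, with 22 of 28 below the filter, among them NR0B2. Of the 6 tested, 4 fell and 1 rose (median -0.65). SCARB1, the gene of a lipoprotein receptor (log2 -0.45 ± 0.05), and SLC51A, a bile acid transporter gene (log2 -0.87 ± 0.22, neighbours at -0.39), fell, and ABCB11, the gene of the bile salt export pump, rose from 28 to 109 reads over the 3 libraries. The count of falls was 2 with DESeq2, with regional medians removed and with WT replicate 2 left out. Of 16 PXR and CAR targets 5 were tested, and ABCC2, an export pump gene, was the lone fall (log2 -1.38 ± 0.16, neighbours at -0.55), with 0 rises (also 0 with DESeq2 and at an unadjusted p under 0.05) and a median of -0.04.

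Among 37 genes of ligand synthesis and inactivation, 18 were tested, 7 rose and 5 fell (median 0.09). PTGIS, the gene of prostacyclin synthase, whose product has been described as a PPARD ligand, rose (log2 6.43 ± 0.13, neighbours at -0.46), as did SRD5A3, a steroid reductase family gene (from 7.30 ± 0.142 to 19.5 ± 0.930 CPM). DIO3, the gene of the deiodinase that inactivates thyroid hormone, fell from 2.13 ± 0.228 to 0.148 ± 0.0630 CPM (log2 -3.80 ± 0.33, with adjusted p = 3.79e-09 by edgeR). CH25H, which makes 25-hydroxycholesterol, an oxysterol, fell from 49 WT reads to 2 RARG-KO reads, with neighbours at -0.81. HSD11B2, the gene of the enzyme that inactivates cortisol, fell (log2 -1.27 ± 0.38), and CYP27B1, which activates vitamin D, did not pass (log2 -0.17 ± 0.16). HSD11B1 (27 WT and 3 RARG-KO reads) and CYP24A1 (24 and 3), of the same list, were too rare to test.

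**Figure D5:**
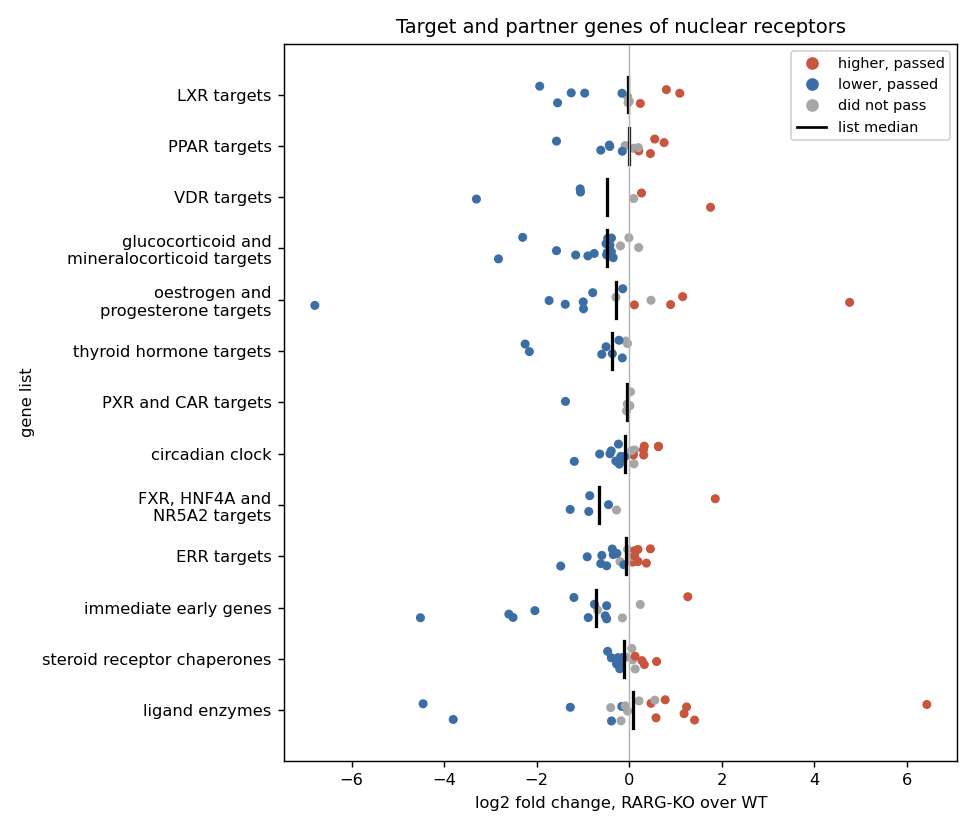
Log2 fold change (RARG-KO over WT) of the tested genes in each of the 13 target and partner lists, coloured by the edgeR call, with the list median as a black bar. The glucocorticoid and thyroid hormone lists hold 14 and 7 falls and 0 rises, whereas the LXR, PPAR and clock lists hold genes on both sides of 0. The point at the far left is TFF1, with 40 WT and 0 RARG-KO reads, whose fitted position depends on the prior count.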

How the data were processed

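RNA-seq libraries of PANC1 cells, 3 WT and 3 RARG-KO, were analysed from the gene counts deposited by the authors, whole read counts without normalization. Per the submitters' processing notes, HISAT2 2.1.0, Bowtie2 2.2.3, featureCounts and DESeq2 were used with GRCh38 and hg38. Their roles, the annotation release and the use of strand are not stated in the sources at hand, so reads of overlapping genes on opposite strands cannot be told apart. Columns were matched to samples by title. Replicates of a group differed by more than sampling noise (chi-square per degree of freedom 2.18 to 5.59), and p-values measure the spread between these libraries, which may be technical. Intervals from reads cover counting error only.

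Groups were compared with edgeR 4.0.16 (R 4.3.3; quasi-likelihood F test, TMM factors, filterByExpr, Benjamini-Hochberg threshold 0.05) over 16996 genes, with DESeq2 1.42.0 as an alternative tool. SE is the absolute log2 fold change divided by the square root of F. Positions and exon lengths are from GENCODE release 29. Neighbours are the 20 tested protein-coding genes on each side. The fit was tested on simulated data. The 40 members and all lists (LXR, PPAR, VDR, steroid, thyroid, PXR and CAR, clock, FXR with HNF4A and NR5A2, ERR, immediate early, chaperone and ligand enzyme genes) were chosen with earlier results of these data known. All members are accounted for, with values by library for those that passed with a log2 change of at least 0.5 or had a mean of at least 10 CPM, and lists are shown by up to 2 rises and 2 falls with the smallest adjusted p.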

Additional observations from a re-analysis of the deposited data

How the results depend on the processing

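Results were recomputed with 13 alternatives: DESeq2, other scaling factors, other filters, a block, regional medians removed and each library left out. The counts of receptor genes stayed close to 8 higher and 9 lower (8 to 9 higher and 8 to 12 lower), and all 17 calls were kept in each setting except NR1D1, which was lost with DESeq2 and when either WT replicate 3 or RARG-KO replicate 3 was left out. No receptor gene turned its direction under other scaling factors. With regional medians removed THRB was at -0.24, opposite to its sign before. Over all genes the calls were 4876 higher and 4978 lower, 5454 and 4568 with upper-quartile factors, and 8768 in all with DESeq2. Without a filter 30% of 33723 genes were called.

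Replicate numbers did not pair the libraries: deviations of same-numbered WT and RARG-KO libraries correlated at -0.00178, -0.384 and -0.168 over 9599 genes, and no library correlated best with its own number. The fit with a replicate block gave 9258 calls, 4546 higher and 4712 lower, and kept all 17 receptor calls.

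In 12 cases, from 7 list counts, a count moved by over 1.5 times in a setting. Those of ligand enzyme falls (3 at a mean of at least 1 CPM), PXR and CAR falls (3 with regional medians removed) and FXR, HNF4A and NR5A2 rises (2 without a filter, 0 at a mean of at least 1 CPM) are in addition to those given with the lists. List medians moved in 36 cases. The 15 receptor genes below the filter had at most 13 reads in a library, so that a difference was not detectable at this depth in most of them.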
